A study of Mus musculus with 24 samples.

Results

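The hepatic expression of 9 genes that pass the rhythm of the circadian clock on to the liver was examined in mice with and without the major urinary protein (Mup) gene cluster. These genes were the clock output transcription factors Dbp, Tef, Hlf and Nfil3, the clock-controlled repressors Ciart, Bhlhe40 and Bhlhe41, and the rhythmic effectors Noct and Usp2. They were picked by name and function, not by a threshold on the counts, and all 9 were found among the 25746 genes listed. RNAseq counts were available for 24 livers, 6 each from male and female wildtype mice (mWT, fWT) and male and female Mup knockout mice (mKO, fKO), 1 library per mouse. All mice were 12 weeks old and of the C57BL/6N background (spelled C57/BL6N in the sample labels). The KO mice were homozygous for a CRISPR/Cas9 deletion of the whole Mup cluster that goes back to 1 male founder, so the KO groups stand for 1 deletion allele. Mice of all 4 groups were fasted for 4 h, imaged by microCT under isoflurane in random order and then killed by cardiac puncture. The clock time at which each liver was taken is not given in the sources used here.

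In the liver, the clock proteins BMAL1 and CLOCK bind E-box sequences and switch on genes such as Dbp, Tef, Ciart and Bhlhe41 in the same part of the day. DBP, TEF and HLF are PAR bZIP factors that activate genes through D-box sequences, and NFIL3 (E4BP4) is a repressor that competes for the same sites. Nfil3 itself is driven through RORE sequences, on which REV-ERB proteins act as repressors. Because the mRNA of such genes rises and falls within a day, a liver taken at a given moment shows their level at that hour only.

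Promoter sequences were taken from RefSeq (GRCm38.p6) as windows from 250 bases before to 50 bases after a transcription start, and 9 windows matched 8 of the 9 genes. The E-box CACGTG was present in 4 of these windows, in the genes Ciart, Tef and Bhlhe41, and in 7.15% of all 32851 windows. Ciart held 3 copies, whose first bases lay 116, 58 and 44 bases before the start. Tef held 1 copy in each of its 2 windows, 127 and 138 bases before the respective start, and Bhlhe41 held 1 copy 153 bases before the start. The D-box forms TTATGTAA (0.938% of all windows) and TTACGTAA (0.119%) were found in 0 of the 9 windows. The RORE core TAGGTCA, searched on both strands, was present in 2.61% of all windows and among the 9 windows in that of Nfil3, on the opposite strand 12 bases before the start. A match describes letters in a window and does not show that a protein is bound there. The stretches below are parts of 3 windows that overlap no annotated exon, printed 5′ to 3′ on the gene's strand because they hold the E-boxes (in capitals) of Ciart (chr3:95882252-95882388, minus strand), of the downstream start of Tef (chr15:81811254-81811413, plus strand), which lies within the annotated gene, and of Bhlhe41 (chr6:145865559-145865670, minus strand).
Ciart: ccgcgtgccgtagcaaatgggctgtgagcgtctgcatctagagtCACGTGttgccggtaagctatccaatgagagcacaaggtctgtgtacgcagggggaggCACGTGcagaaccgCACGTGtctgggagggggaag
Tef: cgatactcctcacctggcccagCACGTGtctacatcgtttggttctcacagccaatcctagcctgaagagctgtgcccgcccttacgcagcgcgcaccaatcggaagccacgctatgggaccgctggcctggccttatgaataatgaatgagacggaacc
Bhlhe41: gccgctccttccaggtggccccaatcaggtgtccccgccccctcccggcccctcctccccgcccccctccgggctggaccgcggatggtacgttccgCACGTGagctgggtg

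Total counts ranged from 15361901 to 26261394 per library. The labels were checked first. In the KO livers, 9 of 12 libraries held no Mup read and the highest total was 11 reads, while the lowest total in a WT liver was 70768 reads. Ddx3y, a Y-linked gene, matched the labelled sex in 24 of 24 libraries. The 5 hepatocyte markers summed to between 93370 and 147700 CPM (counts per 1000000 of the scaled library) in a liver, whereas 7 markers of lymphocytes and neutrophils summed to at most 6.01 CPM. In whole liver, fewer cells of a type and less RNA per cell cannot be told apart. The library number in the sample titles, whose meaning is not given, had a median of 7.0 in mKO (1 to 14), 17 in mWT (2 to 22), 12 in fWT (5 to 18) and 16.5 in fKO (7 to 24).

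The fKO livers 2 and 3 stood apart from the other 22 in Ciart and Usp2, and from the other 4 fKO livers in 8 of the 9 genes, all but Bhlhe41. Their values were 2.98 and 1.81 CPM for Ciart, against 28.5 to 44.0 CPM in the other 4 fKO livers. Usp2 stood at 8.48 and 6.43 CPM in them, against 68.2 to 94.2 CPM in the other 4. For Dbp, Tef, Ciart and Usp2 these were the 2 lowest values of all 24 livers. Nfil3 was at the upper end there, with 27.3 and 28.8 CPM. Arntl, which encodes BMAL1, had 16.9 and 15.6 CPM in these livers and 0.584 to 1.37 CPM in the other 4. The 2 livers differed from each other by more than sampling noise (chi-square per gene 8.16) and were kept as separate mice. They were still the most alike of any 2 livers of a group by this measure, followed by mKO 5 and 6 with 15.3. The main results that involve fKO mice are therefore given with and without them. Since they were singled out by their values in these very genes, the p-values without them are descriptive.

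**Figure D1:**
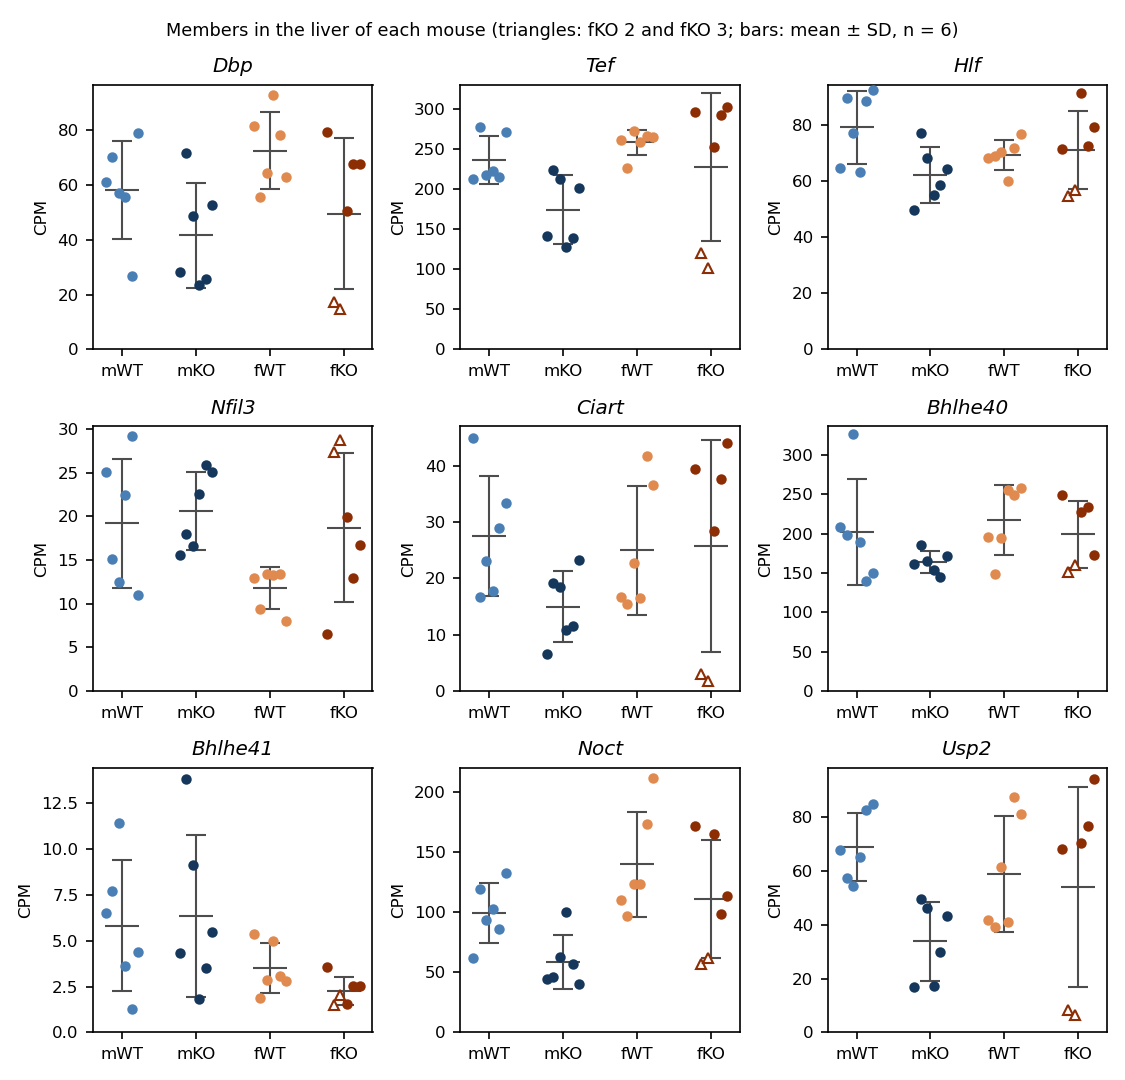
Expression of the 9 genes in CPM (vertical axes, from 0) in each of the 24 livers, with 1 point per mouse and the mean ± SD of the 6 mice of a group as bars. The open triangles are fKO mice 2 and 3, which have the lowest values of all mice for Dbp, Tef, Ciart and Usp2, whereas all 6 mKO points of Usp2 lie below all 6 mWT points.

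Levels were compared between genes as CPM per kilobase of exon, over all 24 livers. Bhlhe40 was highest with 41.6 ± 10.1 (SD, n = 24), followed by Tef with 28.5 ± 7.51 and Dbp with 18.5 ± 7.40. Usp2 (11.2 ± 5.30), Hlf (10.6 ± 1.80), Ciart (10.3 ± 5.65), Noct (9.58 ± 4.27) and Nfil3 (8.67 ± 3.33) lay close together, and their order is within the spread between mice. Bhlhe41 was lowest with 0.667 ± 0.480 CPM per kilobase. The ranges of neighbouring genes overlapped down to Nfil3 (3.23 to 14.4), and only Bhlhe41 (0.191 to 2.06) did not reach the gene before it.

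These genes varied strongly between mice of the same group. The SD of log2(CPM + 0.5) within groups was 1.10 for Ciart and 0.968 for Usp2, compared to a median of 0.192 over the 12330 genes tested, and 27 and 37 of those genes had a larger SD. Bhlhe41 (0.738), Dbp (0.689), Nfil3 (0.521) and Noct (0.502) lay between percentile 97.0 and 99.2 of all genes tested. Tef (0.412) lay at percentile 93.4, Bhlhe40 (0.317) at 83.9 and Hlf (0.225) at 61.4. Without fKO 2 and 3, the SD was 0.561 for Ciart (percentile 98.2), 0.484 for Usp2 (percentile 97.0), 0.483 for Dbp (percentile 97.0) and 0.221 for Tef (percentile 60.7).

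**Figure D2:**
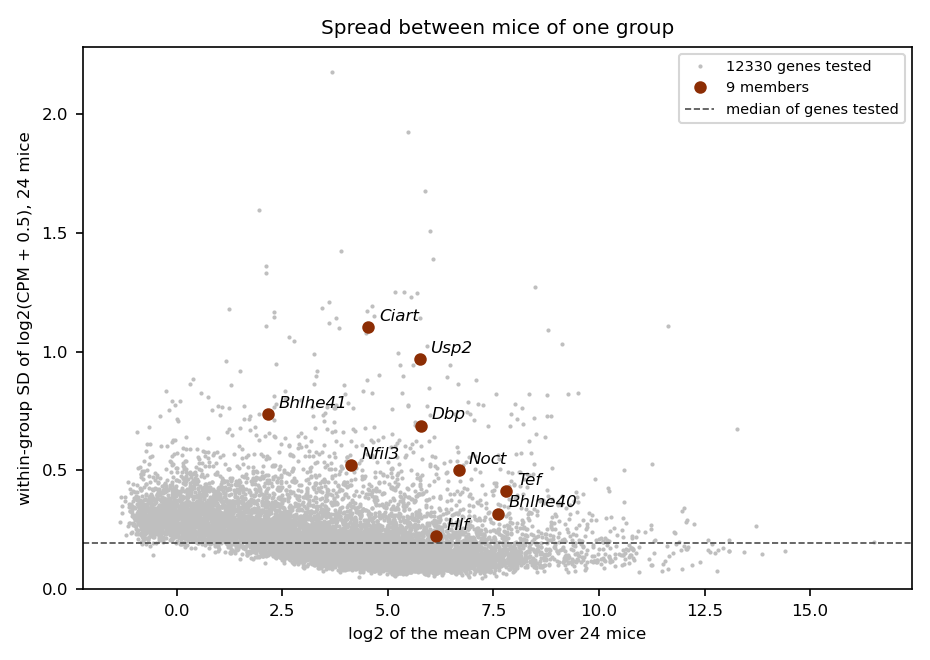
Within-group SD of log2(CPM + 0.5) over 24 mice (vertical axis) against the log2 of the mean CPM (horizontal axis) for the 12330 genes tested (grey) and the 9 genes described (red). All 9 lie above the median SD of 0.192 (dashed line), with Ciart at 1.10 and Hlf at 0.225.

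The effect of the deletion was tested on the counts with edgeR's quasi-likelihood test over all genes that reached 0.66 CPM in 6 or more libraries, a filter all 9 genes passed. In males, 1 of the 9 genes (Hlf) had an unadjusted p-value under 0.01, the cut-off used in the study, compared to 3.52% of all genes tested. With Benjamini-Hochberg adjusted p-values under 0.05, the count was 0 of 9 (0.211% of all genes). In females, 0 of the 9 genes passed at p under 0.01 (0.868% of all genes) and 0 after adjustment (0.0892%), with Nfil3 as the 1 gene whose unadjusted p-value was under 0.05. Of the 9 log2 fold changes, 7 were negative in males, with a median of −0.44, and 6 were negative in females, with a median of −0.12, while the median over all genes was 0.00 in both. The 9 genes are not independent of each other, so these counts describe the list and are no test of it. The difference between the male and the female effect had p under 0.01 in 0 of the 9 genes (1.16% of all genes) and an adjusted p-value under 0.05 in 0 (0.00811%). Hlf was the gene of the 9 with an unadjusted p-value under 0.05 for that difference.

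Dbp (ENSMUSG00000059824, chr7:45705088-45710203, plus strand) encodes the D-box binding protein, a PAR bZIP factor whose mRNA swings widely over the day in liver. In males, its lowest, median and highest values were 26.6, 59.0 and 79.0 CPM in mWT and 23.6, 38.3 and 71.5 CPM in mKO. In females, they were 55.4, 71.1 and 92.6 CPM in fWT and 14.8, 59.0 and 79.0 CPM in fKO. The groups overlapped in both sexes, and 3 of 6 mKO livers (23.6, 25.5 and 28.2 CPM) sat near the lowest mWT liver. The log2 fold change was −0.48 ± 0.37 (SE) in males (edgeR, adjusted p = 0.719) and −0.55 ± 0.37 in females (adjusted p = 0.929), and in females −0.12 ± 0.30 without fKO 2 and 3. The 3′ end of Dbp overlaps exons of Sphk2 on the opposite strand, and whether the counting used strand is not stated. Sphk2 had 16.5 to 42.2 CPM and moved against Dbp between mice (r = −0.777 over 24 mice with group means removed).

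Tef (ENSMUSG00000022389, chr15:81802421-81826863, plus strand), which encodes thyrotroph embryonic factor, belongs to the same family. Its values were 213.2, 220.7 and 277.4 CPM (lowest, median and highest) in mWT and 128.3, 171.7 and 224.3 CPM in mKO. In fWT they were 227.0, 263.3 and 272.3 CPM, and in fKO 101.2, 272.9 and 302.7 CPM. Of the mKO livers, 5 were below every mWT liver, whereas the 4 fKO livers other than 2 and 3 (253.0 to 302.7 CPM) lay within or above the fWT range. Between KO and WT, Tef differed by −0.44 ± 0.22 on the log2 scale in males (edgeR, adjusted p = 0.486) and by −0.18 ± 0.22 in females (adjusted p = 0.948), and the female value turned to 0.15 ± 0.13 without fKO 2 and 3.

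Hlf (ENSMUSG00000003949, chr11:90336536-90390895, minus strand), which encodes hepatic leukemia factor, was the steadiest of the PAR bZIP genes. Its values were 63.1, 82.9 and 92.3 CPM in mWT and 49.7, 61.5 and 77.1 CPM in mKO, and the ranges overlapped. In fWT the values were 60.1, 69.7 and 76.8 CPM and in fKO 54.8, 71.9 and 91.6 CPM, with fWT inside the range of fKO. The mean was 79.28 ± 12.98 CPM (SD, n = 6) in mWT and 62.2 ± 9.82 CPM in mKO. Hlf had the smallest p-value of the 9 genes in males, and its log2 fold change there was −0.35 ± 0.12 (edgeR, adjusted p = 0.266). In females the log2 fold change was 0.03 ± 0.12 (edgeR, adjusted p = 0.988), or 0.19 ± 0.12 without fKO 2 and 3, and the difference between the sexes was −0.38 ± 0.17 (adjusted p = 0.823). The unadjusted p-value of Hlf in males was above 0.01 in 11 of the 24 fits with 1 mouse left out (mKO 1, 4, 5 and 6, mWT 2, 3, 5 and 6, fWT 1 and 5, and fKO 5), with log2 fold changes down to −0.29 without mKO 1. It was also above 0.01 with the library number as a covariate, where the log2 fold change was −0.26 (edgeR, adjusted p = 0.647). The library numbers of mKO were lower than those of mWT, as given above, and their part in the result was not tested further.

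Nfil3 (ENSMUSG00000056749, chr13:52967209-52981073, minus strand) encodes the repressor that opposes the PAR bZIP factors at D-boxes. In females its lowest, median and highest values were 8.05, 13.1 and 13.4 CPM in fWT and 6.54, 18.3 and 28.8 CPM in fKO. In males they were 11.01, 18.7 and 29.2 CPM in mWT and 15.6, 20.3 and 25.9 CPM in mKO. The fKO livers held both the lowest and some of the highest values of the females, and the mKO range lay inside that of mWT. Nfil3 had a log2 fold change of 0.67 ± 0.29 in females (edgeR, adjusted p = 0.929) and of 0.10 ± 0.29 in males (adjusted p = 0.952). In females it was 0.26 ± 0.29 without fKO 2 and 3, and 0.85 without fKO 1, the lowest liver, where the unadjusted p-value fell under 0.01 (edgeR, adjusted p = 0.677).

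Ciart (ENSMUSG00000038550, chr3:95878503-95882251, minus strand) encodes CHRONO, which represses transcription by BMAL1 and CLOCK and whose promoter carries the 3 E-boxes printed above. Its values were 16.7, 26.1 and 44.9 CPM in mWT and 6.57, 14.98 and 23.3 CPM in mKO. In females they were 15.5, 19.8 and 41.7 CPM in fWT and 1.81, 33.1 and 44.0 CPM in fKO. The male ranges overlapped, with 3 mKO livers below the lowest mWT liver, and the fKO range enclosed that of fWT. In fKO the highest liver had 24.4 times the lowest, compared to between 2.68 and 3.55 times in the other groups. In males the log2 fold change of Ciart was −0.88 ± 0.55 (edgeR, adjusted p = 0.626) and in females 0.04 ± 0.54 (adjusted p = 0.996), or 0.59 ± 0.35 in females without fKO 2 and 3.

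Bhlhe40 (ENSMUSG00000030103, chr6:108660629-108666925, plus strand), which encodes the E-box binding repressor DEC1, was the highest of the 9 genes per kilobase. In mWT its values were 139.4, 193.8 and 327.4 CPM and in mKO 144.4, 163.3 and 186.2 CPM, so mKO lay inside the wider range of mWT. In fWT they were 148.5, 222.6 and 257.9 CPM and in fKO 151.4, 200.2 and 249.4 CPM, again with overlap. For Bhlhe40 the log2 fold change was −0.30 ± 0.17 in males (edgeR, adjusted p = 0.575) and −0.12 ± 0.17 in females (adjusted p = 0.960), or 0.03 ± 0.19 in females without fKO 2 and 3.

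Its paralog Bhlhe41 (ENSMUSG00000030256, chr6:145858243-145865558, minus strand), which encodes DEC2, was the lowest, with 21 to 302 reads per library. The values were 1.28, 5.44 and 11.4 CPM in mWT and 1.80, 4.89 and 13.8 CPM in mKO. In fWT they were 1.89, 2.97 and 5.36 CPM and in fKO 1.47, 2.26 and 3.56 CPM. All groups overlapped, and both male groups reached above the highest female liver. Between KO and WT the log2 fold change was 0.13 ± 0.43 in males (edgeR, adjusted p = 0.955) and −0.64 ± 0.47 in females (adjusted p = 0.933), or −0.47 ± 0.55 in females without fKO 2 and 3.

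Noct (ENSMUSG00000023087, chr3:51224447-51251644, plus strand) encodes nocturnin, a rhythmic enzyme related to deadenylases that acts on NADP(H). Its values were 61.6, 98.3 and 132.3 CPM in mWT and 40.6, 51.5 and 100.1 CPM in mKO. In females they were 97.1, 123.0 and 211.4 CPM in fWT and 56.7, 105.8 and 171.6 CPM in fKO. In males the groups overlapped through mKO 4 (100.1 CPM) and mKO 3 (62.9 CPM), and the other 4 mKO livers were below every mWT liver. The mean was 99.23 ± 25.02 CPM (SD, n = 6) in mWT and 58.5 ± 22.1 CPM in mKO. Noct had a log2 fold change of −0.76 ± 0.29 in males (edgeR, adjusted p = 0.325) and of −0.33 ± 0.28 in females (adjusted p = 0.944), where it was −0.02 ± 0.27 without fKO 2 and 3. Without mKO 4 the male value was −0.98, with an unadjusted p-value under 0.01 (edgeR, adjusted p = 0.211). Gm38357, annotated inside the Noct locus on the same strand, had a log2 fold change of −0.92 in males and varied with Noct between mice (r = 0.710 over 24 mice).

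Usp2 (ENSMUSG00000032010, chr9:44067021-44095627, plus strand) encodes a rhythmic ubiquitin-specific protease. In mWT its lowest, median and highest values were 54.7, 66.6 and 85.0 CPM and in mKO 16.9, 36.7 and 49.6 CPM. In fWT they were 39.4, 51.8 and 87.6 CPM and in fKO 6.43, 69.3 and 94.2 CPM. Every mKO liver lay below every mWT liver, which held for 1 of the 9 genes in males and for 1.09% of all genes tested in either direction. For fKO against fWT no gene of the 9 was without overlap (0.349% of all genes). The mean was 68.9 ± 12.6 CPM (SD, n = 6) in mWT and 33.9 ± 14.6 CPM in mKO. The male log2 fold change was −1.02 ± 0.49 (edgeR, adjusted p = 0.471), with a 95% interval from −2.04 to −0.00424. In females it was −0.12 ± 0.48 (adjusted p = 0.989), or 0.40 ± 0.30 without fKO 2 and 3.

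The standard errors of these genes in males depended on the female livers in the fit, since all 4 groups shared 1 estimate of the spread. In a fit of the male livers alone, 4 of the 9 genes had p under 0.01, compared to 478 of all 11844 genes tested in that fit. Added to Hlf were Tef (log2 fold change −0.44, edgeR adjusted p = 0.231), Noct (−0.76, adjusted p = 0.226) and Usp2 (−1.02, adjusted p = 0.172). In the fit of 22 livers without fKO 2 and 3, the same 4 genes had p under 0.01 in males, against 4.32% of all genes, with adjusted p-values of 0.0804 for Tef, 0.0874 for Usp2, 0.131 for Hlf and 0.173 for Noct. The direction in males was lower in mKO in every one of these fits. Without fKO 2 and 3, the male effect differed from the female effect with p under 0.01 in 4 genes (Tef, Hlf, Ciart and Usp2, compared to 3.81% of all genes), by −0.59, −0.54, −1.47 and −1.43 on the log2 scale, with adjusted p-values (edgeR) from 0.151 to 0.229.

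**Figure D3:**
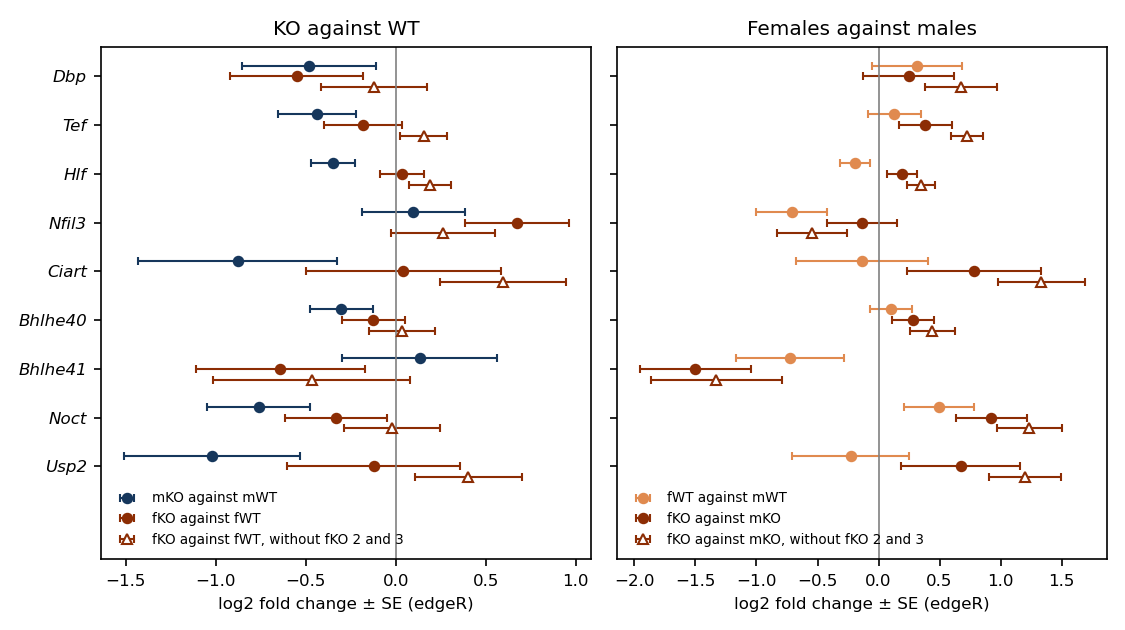
Log2 fold changes ± SE (horizontal axes) from edgeR for the 9 genes, KO against WT on the left and females against males on the right. Circles use all 24 livers and open triangles leave out fKO 2 and 3, which moves the female values of Ciart and Usp2 from 0.04 and −0.12 to 0.59 and 0.40 in the left panel.

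Females and males were compared within each genotype. Among WT livers, 0 of the 9 genes differed with p under 0.01 (18.2% of all genes) or with an adjusted p-value under 0.05 (17.3%), and the groups overlapped for all 9 (7.71% of all genes did not overlap). Nfil3 was numerically lower in fWT than in mWT, by −0.71 ± 0.29 on the log2 scale (edgeR, adjusted p = 0.0989), and its adjusted p-value was 0.0462 without fKO 1. Among KO livers, 2 of the 9 genes differed with p under 0.01 (15.9% of all genes), and the same 2 with an adjusted p-value under 0.05 (14.4%), a share close to that of all genes. Noct was higher in fKO than in mKO, with a log2 difference of 0.92 ± 0.29 (edgeR, adjusted p = 0.0338). Bhlhe41 was lower in fKO, with a log2 difference of −1.50 ± 0.46 (edgeR, adjusted p = 0.0299). For both genes the ranges of fKO and mKO overlapped, as they did for all 9 genes (7.26% of all genes did not overlap).

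Neither call held in every fit. With 1 mouse left out, the adjusted p-value of Bhlhe41 was above 0.05 without fKO 2, fKO 3, fKO 4, mKO 2 or mKO 3, up to 0.1003 without mKO 2, its highest liver (13.8 CPM). That of Noct was above 0.05 without fKO 1, fKO 4, mKO 1, mKO 2, mKO 5 or mKO 6, up to 0.0906 without fKO 1. Without a filter on low counts they were 0.0503 and 0.0562. With the library number as a covariate, the differences were −1.05 (adjusted p = 0.189) for Bhlhe41 and 0.70 (adjusted p = 0.139) for Noct, and in a fit of the KO livers alone the adjusted p-value of Noct was 0.0926. Without fKO 2 and 3, 5 genes had both p under 0.01 (15.8% of all genes) and an adjusted p-value under 0.05 (14.1%), namely Tef, Hlf, Ciart, Noct and Usp2, all higher in fKO than in mKO. Their log2 differences were 0.72 ± 0.13, 0.35 ± 0.12, 1.33 ± 0.35, 1.24 ± 0.26 and 1.20 ± 0.30. In that comparison the 4 remaining fKO livers lay above all 6 mKO livers for Tef, Ciart and Usp2. The livers left out had the 2 lowest values of all 24 for these 3 genes, so this separation existed only through the choice. For Dbp they also had the 2 lowest values, but the remaining fKO livers (from 50.4 CPM) still overlapped with mKO (up to 71.5 CPM). The share of all genes with such a separation was not computed. Bhlhe41 had an adjusted p-value of 0.114 (edgeR) in that comparison. Markers of other liver cells also differed between the sexes in WT mice (adjusted p under 0.05 in 3 of 5 Kupffer cell, 2 of 5 endothelial and 2 of 4 stellate cell genes, all higher in females). In KO mice 0 of 5, 1 of 5 and 3 of 4 of them passed that threshold, again higher in females (0, 0 and 1 without fKO 2 and 3). Over all 24 livers, the log2 differences of all these genes were above 0 in KO mice. The 5 Kupffer cell genes summed to 63.7 to 176.6 CPM in mKO and 99.8 to 171.8 CPM in fKO. The part of these markers in the sex differences of the 9 genes was not tested.

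Pairs of these genes were then compared between mice of the same group, on log2(CPM + 0.5) less the group mean. Over all 24 mice, 27 of the 36 pairs had a positive Pearson r, and the negative ones were the 8 pairs with Nfil3 and the pair of Bhlhe41 and Noct. In permutation tests within groups, 14 pairs had an adjusted p-value under 0.05, 13 positive and 1 negative, and 20 pairs had an unadjusted p-value under 0.05. Since fKO 2 and 3 form a separate cluster, the pairs were also computed over the other 22 mice, where 5 pairs kept an adjusted p-value under 0.05.

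One of the 2 tightest of these pairs was Ciart and Usp2, with r = 0.840 over 22 mice (permutation p = 7e-05, adjusted p = 0.0018). Over 24 mice r was 0.963 and Spearman's rho was 0.928 (permutation p = 1e-05, the smallest the permutations can give, adjusted p = 0.00018). Dbp and Bhlhe41 had r = 0.841 over 22 mice (adjusted permutation p = 0.0018) and r = 0.652 (rho = 0.683) over 24. For Dbp and Tef, r was 0.820 over 22 mice (adjusted permutation p = 0.0054) and 0.920 (rho = 0.896) over 24. Hlf and Usp2 had r = 0.611 over 22 mice (adjusted permutation p = 0.0256), 0.727 (rho = 0.743) over 24, and 0.718 without the 2 mice farthest from the median of Hlf. Bhlhe40 and Bhlhe41 had r = 0.619 over 22 mice (adjusted permutation p = 0.0290), 0.618 (rho = 0.546) over 24, and 0.569 without the 2 mice farthest from the median of Bhlhe40.

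The other pairs with an adjusted p-value under 0.05 over 24 mice did not keep it over 22, but not all lost their r. Between Tef and Usp2, r was 0.924 over 24 mice and 0.692 over 22. It was 0.717 and 0.58 for Tef and Hlf, and 0.429 and 0.632 for Tef and Bhlhe41. Several relations rested more on fKO 2 and 3. The r of Dbp with Ciart fell from 0.768 over 24 mice to 0.354 over 22 mice, that of Dbp with Usp2 from 0.782 to 0.395, and that of Tef with Ciart from 0.872 to 0.482. The negative relation of Dbp and Nfil3, the activator and the repressor of D-box genes, was −0.612 over 24 mice (rho = −0.489, permutation p = 0.0120, adjusted p = 0.0309) and −0.378 over 22 mice (permutation p = 0.0839). Noct had no pair with an adjusted p-value under 0.05, and its r with Dbp turned from 0.375 to −0.129. Against the library number of the titles, 0 of the 9 genes had a permutation p-value of Pearson's r under 0.05 over 24 mice. The largest r were those of Noct (0.367) and Usp2 (0.366). By Spearman's rho, Usp2 had 0.436 with a permutation p-value of 0.0431, not adjusted over the 9 genes.

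**Figure D4:**
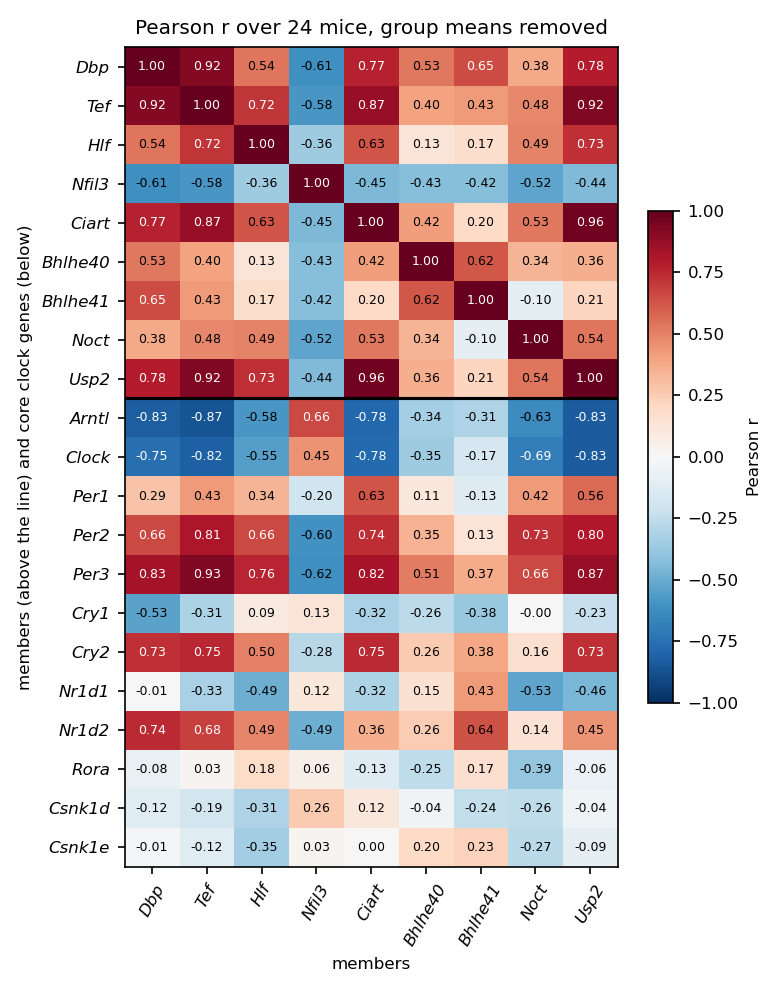
Pearson r over 24 mice with group means removed, for the 9 genes (columns) against each other (rows above the line) and against 12 core clock genes (rows below the line). Red is positive and blue negative, with Ciart and Usp2 at 0.96, and the row of Arntl negative for every gene except Nfil3.

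Core clock genes, fixed as a list of 14 of which 13 were expressed enough to be tested, were set beside these outputs. With Arntl (BMAL1), r was −0.828 for Dbp, −0.866 for Tef, −0.784 for Ciart and −0.829 for Usp2 over 24 mice, and 0.663 for Nfil3. Over the 22 mice without fKO 2 and 3, these values were −0.583, −0.598, −0.302, −0.445 and 0.466. Per3, a period gene, followed Tef with r = 0.929 over 24 and 0.733 over 22 mice. In males Per2, a period gene, had a log2 fold change of −1.11 ± 0.35 with an unadjusted p-value under 0.01, and 0 of the 13 core clock genes had an adjusted p-value under 0.05 (edgeR). In females 0 of 13 had p under 0.01 (0.868% of all genes). Arntl ranged from 0.584 CPM in fKO 1 to 16.9 CPM in fKO 2, and its log2 fold change was 1.36 ± 0.73 in males (edgeR, adjusted p = 0.536) and 1.63 ± 0.73 in females (adjusted p = 0.929). The female direction rested on fKO 2 and 3, and without them the log2 fold change of Arntl in females was −0.87 ± 0.57 (edgeR, adjusted p = 0.807). In that fit 2 core clock genes passed an adjusted p-value under 0.05 in males, compared to 98 of all 12280 genes, and 0 in females. They were Per2 (−1.11 ± 0.22, edgeR adjusted p = 0.0206) and Per3 (−1.05, adjusted p = 0.0447). Clock (0.51 ± 0.13, edgeR adjusted p = 0.0711) and Arntl (1.36 ± 0.44, adjusted p = 0.180) were higher in mKO there. Both had an unadjusted p-value under 0.01, as did 4.32% of all genes.

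**Figure D5:**
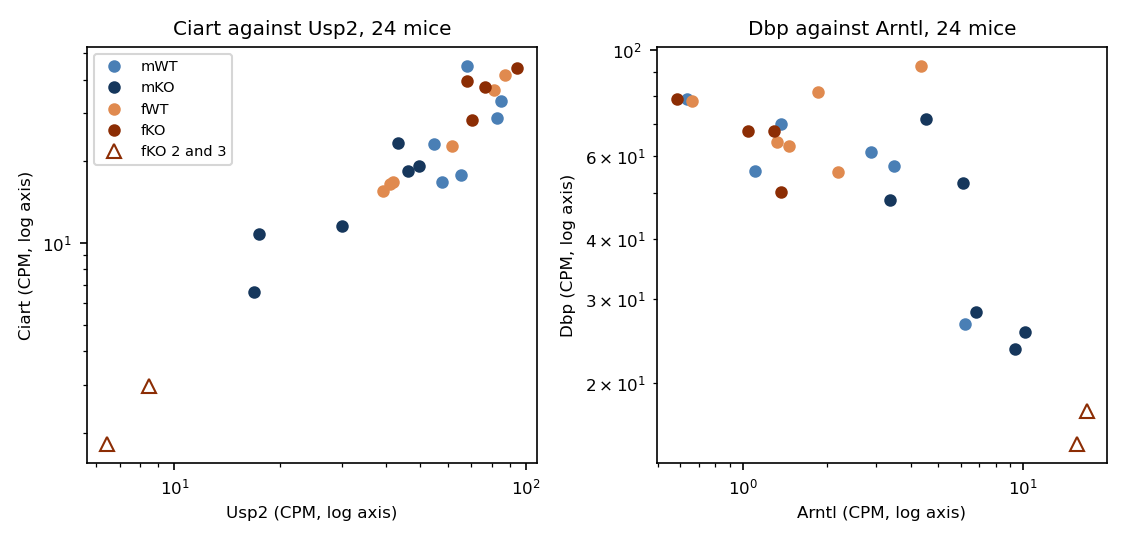
Ciart against Usp2 (left) and Dbp against Arntl (right) in CPM on log axes, 1 point per mouse, 24 mice. Ciart and Usp2 rise together over the 24 mice, whereas Dbp is lowest where Arntl is highest, at fKO 2 and 3 (triangles). Points scatter in mWT, where Ciart is 17.8 CPM in mWT 4 and 44.9 CPM in mWT 1 at similar Usp2 (65.3 and 67.9 CPM).

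The genes whose variation between mice was most like that of each gene were taken from all 12330 tested, by Pearson r over 24 mice with group means removed. For Dbp the 5 highest were Tef (0.920), Narf (0.892), Slc5a6 (0.836), Sh2b3 (0.834) and Per3 (0.832). The 5 lowest for Dbp were Lnx2 (−0.861), Blcap (−0.859), Mreg (−0.852), Rufy1 (−0.834) and Arntl (−0.828). For Ciart they were Usp2, the glucose 6-phosphate transporter gene Slc37a4 (0.892) and Mtss1 (0.888), and for Usp2 they were Ciart, Tef (0.924) and Stk35 (0.908). Nfil3 was closest to Ccng2 (0.848), Pnrc1 (0.837) and Grb2 (0.769), and no other gene of the 9 was among them. Hlf was closest to Tmtc2 (0.823), Fmo4 (0.823) and Lrp4 (0.822), Bhlhe40 to Sh3bp4 (0.711), Synpo (0.701) and Uggt2 (0.70), Bhlhe41 to Rhebl1 (0.782), Zgrf1 (0.773) and Jade1 (0.771), and Noct to Gm16286 (0.823), Nrep (0.770) and Uqcc1 (0.767). Being the extremes of many genes, these values are descriptions.

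Genes known to be regulated by the PAR bZIP factors were followed as a list of 8, all of them tested. In males 1 of the 8 had p under 0.01 (3.52% of all genes), and 0 of 8 passed in females (0.868%). The male gene was Cyp7a1, the rate-limiting enzyme of bile acid synthesis, with a log2 fold change of −1.81 ± 0.47 (edgeR, adjusted p = 0.135). The list had a median log2 fold change of −0.37 in males and −0.16 in females, and the female median was 0.18 without fKO 2 and 3. Of 11 other rhythmic liver genes, 4 had p under 0.01 in males (3.52% of all genes) and 0 had an adjusted p-value under 0.05 (0.211%). They were Elovl3 (1.45 ± 0.39) and Insig2 (1.08 ± 0.29), which were higher in mKO, and the cell cycle kinase gene Wee1 (−1.20 ± 0.35) and Tspan4 (−0.54 ± 0.19), which were lower. In females 0 of these 11 had p under 0.01 (0.868% of all genes). Insig2 had an adjusted p-value of 0.0456 in males (edgeR) once fKO 2 and 3 were left out. Between fKO and mKO, 6 of the 8 PAR bZIP targets were higher in females with an adjusted p-value under 0.05 (edgeR, 14.4% of all genes in either direction), led by Cyp2a4, Cyp2b10 (3.04 ± 0.38) and Nr1i3 (0.93 ± 0.23), which encodes the xenobiotic receptor CAR. These 3 were also higher in fWT than in mWT, and reads of Cyp2a4 and its close copy Cyp2a5 may be split. Of the 11 other rhythmic genes, 3 differed between fKO and mKO with an adjusted p-value under 0.05 (14.4% of all genes). They were Elovl3 (−5.61 ± 0.47), Insig2 (−1.03 ± 0.29) and Nampt (0.93 ± 0.31), the rate-limiting enzyme of NAD salvage. Without fKO 2 and 3, the counts were again 6 of 8 PAR bZIP targets, and 5 of 11 other rhythmic genes (14.1% of all genes), with Wee1 (1.33) and Tspan4 (0.60) higher in fKO.

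Lists of genes that respond to other daily signals were counted in the same way. Of 7 glucocorticoid targets, 10 immediate early genes and 8 feeding-induced genes, 0 had p under 0.01 between KO and WT in either sex. Of 10 fasting-induced genes, 2 had p under 0.01 in males (3.52% of all genes) and 0 in females (0.868%). The 2 genes were Cyp4a10 (1.45 ± 0.42) and Cyp4a14 (2.85 ± 0.78), both fatty acid hydroxylases. None of these lists had a gene with an adjusted p-value under 0.05 between KO and WT by edgeR in either sex. Between fWT and mWT, the genes of these lists past adjusted p under 0.05 were Sgk1 (0.61 ± 0.18), Cyp4a10 (2.28 ± 0.43), Cyp4a14 (3.69 ± 0.81) and Scd1 (−1.24 ± 0.37), and between fKO and mKO the gene was Scd1 (−1.43 ± 0.37, or −1.07 with an adjusted p-value of 0.0594 without fKO 2 and 3). In the fit of 22 livers, 2 immediate early genes had an unadjusted p-value under 0.01 in females, compared to 138 of all 12280 genes. They were Fosb (−2.32) and Jun (−0.86), with an adjusted p-value of 0.806 for both (edgeR). Among the cell type markers, 1 of 5 hepatocyte genes (Ttr, 0.30 ± 0.10 in males) and 0 of the endothelial, Kupffer, stellate, cholangiocyte and lymphocyte or neutrophil genes had p under 0.01 between KO and WT.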

How the data were processed

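Hepatic mRNA was sequenced in 24 mice, 6 per group, with a stranded kit in 1 multiplexed run. According to the submitters' processing notes, reads were handled with bcl2fastq 2.19, fastp 0.20 and STAR 2.7a against GRCm38.p6, and edgeR 3.28.1 was used downstream. Reads were counted with featureCounts, and the annotation release and strand setting are not given in the sources used here. The values deposited by the authors are raw counts per Ensembl gene, neither normalized nor filtered. Of 25746 IDs, 25712 were matched to GENCODE M21 and 34 were not, and 7064 genes had 0 counts in all libraries.

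Groups and mouse numbers were taken from the sample titles. The 9 genes, the gene lists and the comparisons were chosen with earlier results of these data known. Counts were analysed with edgeR 4.0.16 in R 4.3.3, with TMM scaling, a filter of 0.66 CPM in at least 6 of 24 libraries (12330 genes tested), a robust quasi-likelihood fit with 1 mean per group, and Benjamini-Hochberg adjustment over all genes tested. All tests were two-sided. CPM are counts per 1000000 of TMM-scaled library size, and SE are from edgeR. Correlations used log2(CPM + 0.5) less group means and 100000 permutations of mice within groups, adjusted over 36 pairs or 9 genes. Named genes were the 9 genes, the core clock list, for Dbp the 5 highest and 5 lowest correlated genes, for the others the 3 highest, and of other lists those with an adjusted p-value under 0.05 (at most 3 per list and comparison). Other genes named were chosen after their values were seen. Total counts of 15361901 to 26261394 per library set the counting error, which was not compared with the spread between mice. It is larger in proportion where reads are few, as for Bhlhe41 (21 to 302 reads per library). P-values measure the spread between mice, each with 1 library.

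In simulated counts for 12330 genes in males, 90% of genes changed by a log2 fold change of 1 were recovered at an adjusted p-value under 0.05. Of those changed by 2, 99% were recovered, and 7.8% of calls were false. These shares were not computed for the genes described and do not give the chance of finding such a change in them. Their within-group SD ran from 0.225 (Hlf) to 1.10 (Ciart), against a median of 0.192 over all genes tested. In the measured counts, Usp2 had a male log2 fold change of −1.02 ± 0.49 (edgeR, adjusted p = 0.471). Alternatives were DESeq2 1.42.0, its size factors, no filter, filterByExpr, a fit of the compared groups alone, removal of the Mup genes before scaling, the mouse number as a block, the library number as a covariate, a pseudocount of 0.1 in the correlations, and each mouse left out in turn. Leaving out fKO 2 and 3 together was added after seeing the data. Sequences came from RefSeq promoter tables. Figures were drawn with matplotlib 3.10.9. Values of a further core clock gene are not reported here.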

Additional observations from a re-analysis of the deposited data

Results flagged for a closer look

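In 36 groups of 6 values (9 genes in 4 groups), 3 had a mouse whose gap to its nearest neighbour exceeded Dixon's 95% limit for 6 values, as a share of the group's range, and chance alone marks about 1 in 20 groups. Tef was lowest in fWT 2 with 227.0 CPM, while the next fWT liver had 259.2 CPM (gap of 0.712 of the range). Bhlhe40 was highest in mWT 3 with 327.4 CPM, while the next mWT liver had 208.3 CPM (0.633 of the range). Noct was highest in mKO 4 with 100.1 CPM, and the next mKO liver had 62.9 CPM. The fKO livers 2 and 3 were not marked in this way, since each is the other's nearest neighbour.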

How the results depend on the processing

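The number of the 9 genes with p under 0.01 kept within 1.5 times of its value under DESeq2, its size factors, both other filters, removal of the Mup genes and the mouse number as a block, in all 5 comparisons. In males, 1 gene became 4 in a fit of males alone, 0 with the library number as a covariate and 4 without fKO 2 and 3. For the difference of the KO effects, 0 became 4 without fKO 2 and 3. Between fKO and mKO, 2 became 1 in a fit of these groups alone, 0 with the library number and 5 without fKO 2 and 3. The pairs with an adjusted p-value under 0.05 went from 14 to 5 without fKO 2 and 3. With 1 mouse left out, the counts ranged from 0 to 2 in males, 0 to 1 in females, 0 to 1 between fWT and mWT, 0 to 3 between fKO and mKO, stayed at 0 for the difference of the effects, and ranged from 8 (without fKO 2) to 18 pairs, and from 0 to 2 genes (without fKO 1) for the library number. Mice with the same number did not deviate together (12 pairs, r from −0.363 to 0.219), so the block is no pairing by design, and it left the counts at 1, 0, 0, 0 and 2.

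Signs turned for these values, none of them past the threshold. With the library number as a covariate, the log2 fold change was −0.20 for Bhlhe41 in males, and −0.023 for Hlf and −0.091 for Ciart in females. With the block, Ciart in females was −0.39. Without fKO 2 and 3, the female values were 0.15 for Tef, 0.034 for Bhlhe40 and 0.40 for Usp2, the difference of the effects was −0.36 for Dbp, and r was −0.129 for Dbp and Noct, −0.0687 for Tef and Noct, −0.125 for Hlf and Bhlhe40, 0.0383 for Nfil3 and Ciart and 0.0731 for Nfil3 and Usp2, and with the library number −0.179 for Dbp and −0.0935 for Bhlhe40. The cause was not tested. With 1 mouse left out, 41 values of single genes or pairs changed sign. They ranged in males from −0.020 to 0.26 for Nfil3 and −0.26 to 0.44 for Bhlhe41, in females from −0.046 to 0.10 for Hlf, −0.17 to 0.29 for Ciart and −0.35 to 0.11 for Usp2, for the difference of the effects from −0.16 to 0.25 for Dbp and −0.26 to 0.013 for Bhlhe40, between fWT and mWT from −0.34 to 0.057 for Ciart, and between fKO and mKO from −0.29 to 0.041 for Nfil3. The r of Bhlhe41 and Noct ranged from −0.185 to 0.104, and r with the library number from −0.0145 to 0.203 for Dbp, −0.15 to 0.245 for Nfil3 and −0.0807 to 0.122 for Bhlhe40.

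Over all genes tested, the male comparison had 26 genes past adjusted p under 0.05, against 137 with DESeq2, 49 in a fit of males alone, 2 with the Mup genes removed and 98 without fKO 2 and 3. In females there were 11, against 19 with DESeq2 and 0 with the Mup genes removed (86 at an unadjusted p under 0.01). The difference of the effects had 1, against 10 with DESeq2 and 23 without fKO 2 and 3. At an unadjusted p under 0.01 it had 143 genes, against 468 without fKO 2 and 3. Males had 434 genes at that threshold, against 478 in a fit of males alone, 244 with the library number and 531 without fKO 2 and 3.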

Other observations

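When the livers were ordered by the library number in their titles, whose meaning is not given, the livers numbered 10 to 13 (mKO 4, mKO 5, fKO 2 and fKO 3) followed each other with low Dbp and Usp2. This did not hold for all 9 genes, since Noct in mKO 4 (100.1 CPM) was the highest of the mKO livers. This run was chosen after its values were seen and was not tested. Their Usp2 values were 17.4, 30.1, 8.48 and 6.43 CPM, their Dbp values 23.6, 25.5, 17.4 and 14.8 CPM, and their Arntl values 9.37, 10.2, 16.9 and 15.6 CPM. The livers on either side, 9 (mWT 2) and 14 (mKO 6), had 57.6 and 43.4 CPM of Usp2 and 1.37 and 6.12 CPM of Arntl. Another liver with low Usp2 stood alone at number 1 (mKO 1, 16.9 CPM, with 6.82 CPM of Arntl). In mWT 5 (number 21) the outputs parted, with 26.6 CPM of Dbp, the lowest of the WT livers, beside 82.9 CPM of Usp2.

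Npas2, a partner of BMAL1 that was too low to be tested, had its highest values in fKO 3 (1.91 CPM) and fKO 2 (1.36 CPM), where Arntl was highest too, and 0 reads in mWT 5, mWT 6, fWT 5 and fKO 6.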
